A study of Rattus norvegicus with 15 samples.

Results

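The interferon response genes described here are 39 rat genes, taken by symbol from a list of genes that cells switch on when interferon reaches them. All 39 were among the 22468 genes of the expression table, and all 39 were among the 17657 that passed the filter on low counts. In bone from female rats many of them were highest in the same library, YJZYT1, and next highest in Blank3, a library of untreated rats. No member passed the test in any of the 4 comparisons made.

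Interferons are secreted alarm proteins of antiviral defence. Type I interferons bind the receptor made of Ifnar1 and Ifnar2, the kinases Jak1 and Tyk2 then act on Stat2, and Stat2 joins Irf9 in a complex that binds the interferon-stimulated response element in promoters. Interferon gamma works through its own receptor and shares many targets. The induced genes encode sensors of viral RNA and DNA, transcription factors that amplify the response, proteins that block viral replication, the ubiquitin-like protein Isg15 with its enzymes, and parts of antigen processing. Bone holds marrow, so blood-forming and immune cells contribute to its RNA, and in mice interferon signalling restrains the formation of osteoclasts, the cells that resorb bone.

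Poly(A) RNA of whole bone from female Sprague-Dawley rats was sequenced in 15 libraries, with 3 in each of 5 groups. SYT, YJT and YJZYT were ovariectomized and carry conditions known here only by those names. Model was ovariectomized, with its condition given as osteoporosis, and Blank was untreated. The series is about Zhuanggu Zhitong Capsule, a Chinese herbal medicine, while the labels name neither the group that was given it nor the doses, the bone or the age of the rats. Since no sham-operated group is among the labels, loss of the ovaries and the operation itself cannot be told apart in Model against Blank. No label ties a replicate to its own animal, so the p-values measure the spread between these libraries, which may be technical. Libraries are named by group and replicate number.

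Totals were 64472700 to 74255667 counts per library, and mitochondrial genes took 6.07% of counts in Blank1 to 25.5% in SYT1. Levels below are CPM, library shares of counts scaled by TMM factors, which compare 1 gene across libraries. FPKM, which also divides by transcript length, is used to compare levels between genes, and in some alternative fits and filters on level. Markers of osteoblasts, osteoclasts and marrow cells were detected in every library, including all 8 osteoblast and all 7 osteoclast markers listed. YJT3 and YJZYT3 stood apart, with osteoblast markers summing to 2577 and 3311 CPM, against 11736 to 83550 CPM in the other libraries, and osteoclast markers to 1107 and 1143 CPM, against 1953 to 8405 CPM.

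Promoter sequences show what many of these genes share outside their expression values. The core of the interferon-stimulated response element was searched as GAAANNGAA, where N is any base, on both strands in the 250 bases before each RefSeq start site (assembly GRCr8). A single promoter in the RefSeq table was matched by Entrez identifier for 30 of the 39 members, and the other 9 were left out. The motif was in 17 of these 30, or 56.7% (95% Wilson interval 39.2 to 72.6), against 2717 of all 33469 promoters in the table, or 8.12%. A stricter form, with GAAA on both sides of the 2 free bases, always holds such a match and was in 16 of 30 members, or 53.3%, and in 3.41% of all promoters. The nearest match to the start was 2 bases away in Xaf1 and 3 in Trim21, and Rsad2 had its match 137 bases away. The gamma-activated site TTCNNNGAA was searched the same way and was in 5 of 30 members and 7.67% of all. A match describes the letters in the window and is not evidence of binding.

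The 7 stretches below were chosen because they belong to genes whose values carry the patterns that follow. They are read 5′ to 3′ on the strand of the gene, and capitals mark GAAANNGAA or its reverse complement TTCNNTTTC. Irf7, Oas1a and Ifi44 were over 2-fold up in YJZYT1, Parp14 was highest there by less, Ifit3 was highest in Blank3, and Rsad2 and Cmpk2 were highest in YJZYT3.
Irf7, chr1:205800058-205800116, minus strand: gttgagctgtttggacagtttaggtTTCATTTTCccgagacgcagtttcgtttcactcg
Oas1a, chr12:41330400-41330464, plus strand: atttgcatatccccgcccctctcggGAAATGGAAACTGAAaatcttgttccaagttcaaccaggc
Ifi44, chr2:243303841-243303890, minus strand: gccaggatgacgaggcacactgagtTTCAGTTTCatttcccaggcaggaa
Parp14, chr11:78408033-78408091, plus strand: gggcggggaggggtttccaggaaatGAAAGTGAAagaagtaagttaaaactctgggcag
Ifit3, chr1:241527258-241527325, plus strand: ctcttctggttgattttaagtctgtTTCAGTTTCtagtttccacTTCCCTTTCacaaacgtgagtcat
Rsad2, chr6:48788233-48788291, minus strand: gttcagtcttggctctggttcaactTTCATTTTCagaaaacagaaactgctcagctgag
Cmpk2, chr6:48802734-48802792, plus strand: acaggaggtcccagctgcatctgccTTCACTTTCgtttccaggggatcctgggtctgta

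Oas1a holds 2 overlapping matches, which read as 1 run of capitals, and Ifit3 holds 2 apart. Of the 11 members over 2-fold above the other libraries in YJZYT1, 6 had a matched promoter and 3 of these held the motif, while it was in 14 of the other 24.

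By FPKM the members spanned a wide range of levels. Rsad2, or viperin, an enzyme that makes a chain-terminating nucleotide, was the most abundant by far, with a mean of 121.6 FPKM and a range of 57.3 to 187.5 over the 15 libraries. Lgals3bp, a secreted galectin-binding glycoprotein, came next at a mean of 47.1 FPKM and Bst2, or tetherin, which holds budding virus at the cell surface, at 42.7 FPKM. The lowest were Herc6, a ligase that attaches Isg15 to proteins in mice, at a mean of 2.14 FPKM and Ddx58, the RNA sensor RIG-I, at 1.68 FPKM.

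The members also differed in how far they varied. In CPM, 33 of 39 varied over 2-fold between their highest and lowest library and 14 varied over 4-fold. The widest ranges were those of Mx1, at 13.8-fold, and Mx2, at 11.1-fold. The narrowest were those of Nmi, which partners Ifi35, at 1.56-fold and Gbp2, a guanylate-binding protein, at 1.75-fold. The median SD of log2 CPM over the 15 libraries was 0.46 for the members and 0.45 for all genes tested.

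**Figure D1:**
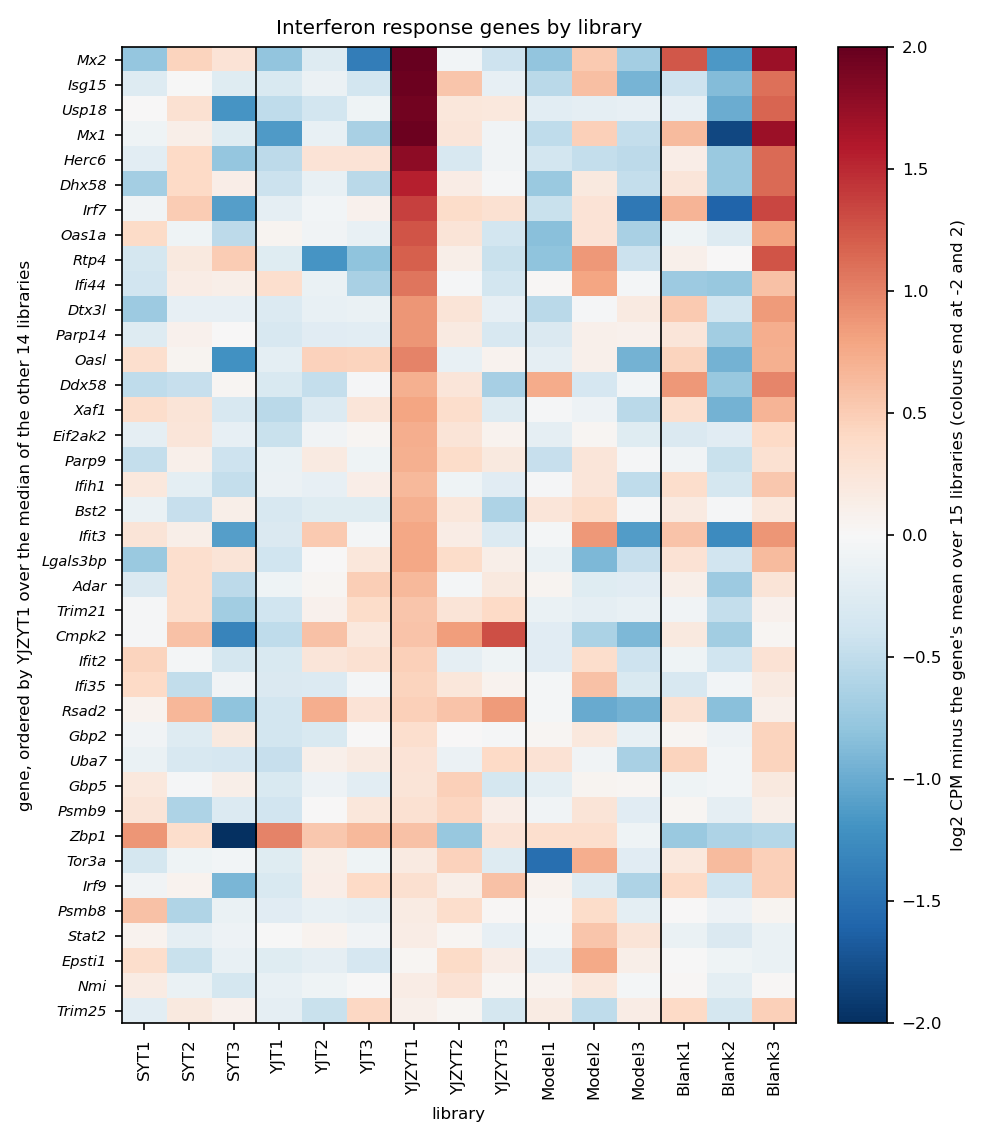
Deviation of each of the 39 members from its mean over the 15 libraries, in log2 CPM, with members in rows, ordered by their ratio of YJZYT1 to the median of the other 14 libraries, and libraries in columns by group. The column of YJZYT1 is high for most members, Blank3 is next, and Blank2 is low.

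YJZYT1 and Blank3 stood apart for this block of genes. YJZYT1 was the highest of the 15 libraries for 21 of the 39 members, while it was highest for 2.71% of all genes tested. Blank3 was second for 15 of those 21, and was itself highest for 5 members, against 5.42% of all genes. In YJZYT1, 11 members were over 2-fold above the median of the other 14 libraries (3.98% of all genes), and in Blank3 9 members were (7.88% of all genes). In the other libraries this count was 0 to 2, against 3.11% to 11.7% of all genes.

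A score per library, the median over members of the log2 deviation from the 15-library mean, gives the same order. The scores were -0.07, 0.08 and -0.24 in SYT, -0.30, -0.09 and -0.03 in YJT, 0.71, 0.23 and -0.02 in YJZYT, -0.14, 0.21 and -0.24 in Model and 0.13, -0.40 and 0.48 in Blank. YJZYT and Blank each spanned more than any other group, and Blank held both the second highest and the lowest library. The group means were -0.07 ± 0.16 in SYT, -0.14 ± 0.14 in YJT, 0.31 ± 0.37 in YJZYT, -0.06 ± 0.24 in Model and 0.07 ± 0.44 in Blank (SD, n = 3 each).

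Among direct antiviral effectors, the Mx proteins, dynamin-like GTPases that trap viral components, had the widest swings. Mx1 was at 9.13, 10.5 and 8.22 CPM in SYT, 4.40, 8.79 and 6.16 in YJT, 37.9, 11.5 and 9.22 in YJZYT, 6.80, 13.5 and 6.93 in Model and 15.0, 2.75 and 31.6 in Blank. Mx2 was at 3.61, 8.39 and 7.40 CPM in SYT, 3.54, 5.13 and 2.37 in YJT, 26.3, 5.89 and 4.63 in YJZYT, 3.55, 8.82 and 3.82 in Model and 14.5, 2.76 and 20.2 in Blank. YJZYT1 and Blank3 were the highest libraries for both genes, Blank1 came next, and the other YJZYT libraries lay within the range of Model. Oas1a makes the oligoadenylates that activate RNase L and was at 10.9, 7.91 and 5.89 CPM in SYT, 8.75, 8.01 and 7.63 in YJT, 20.1, 10.1 and 6.51 in YJZYT, 4.73, 10.2 and 5.35 in Model and 7.90, 7.03 and 14.7 in Blank. Here too YJZYT1 and Blank3 were the highest.

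The Isg15 system tags proteins with a ubiquitin-like modifier. Isg15 itself was at 5.11, 6.09 and 5.18 CPM in SYT, 4.94, 5.61 and 4.74 in YJT, 23.9, 8.97 and 5.43 in YJZYT, 4.20, 9.27 and 3.20 in Model and 4.56, 3.34 and 13.04 in Blank. Its removing enzyme Usp18, which also dampens the type I receptor, was at 5.63, 6.87 and 2.48 CPM in SYT, 3.93, 4.33 and 5.24 in YJT, 21.4, 6.52 and 6.48 in YJZYT, 4.85, 4.92 and 5.00 in Model and 5.00, 2.81 and 12.5 in Blank. Herc6 was at 6.56, 10.1 and 4.47 CPM in SYT, 5.29, 9.26 and 9.27 in YJT, 26.3, 6.11 and 7.29 in YJZYT, 5.94, 5.46 and 5.32 in Model and 8.33, 4.58 and 16.8 in Blank. For all 3 genes YJZYT1 was highest and Blank3 second. All YJZYT libraries were above all Model libraries for Usp18 and Herc6, which had a narrow spread in Model, while the groups overlapped for Isg15. Trim21, a ubiquitin ligase that is also a receptor for antibody inside cells, was at 32.6, 41.9 and 20.5 CPM in SYT, 25.1, 35.2 and 42.7 in YJT, 48.4, 39.7 and 43.7 in YJZYT, 30.2, 29.2 and 29.8 in Model and 31.5, 23.7 and 35.3 in Blank. Its 3 YJZYT values were all above the 3 Model values. Trim25, the ligase that activates RIG-I, was at 21.0, 27.9 and 25.7 CPM in SYT, 21.5, 17.8 and 32.2 in YJT, 26.1, 25.03 and 19.1 in YJZYT, 27.2, 17.2 and 26.8 in Model and 32.0, 19.0 and 33.8 in Blank, and here the YJZYT and Model ranges overlapped.

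Of the sensors, Dhx58, or LGP2, a helper of the RNA sensors, was at 3.76, 7.94 and 6.61 CPM in SYT, 4.49, 5.43 and 4.14 in YJT, 17.7, 6.70 and 5.94 in YJZYT, 3.61, 6.91 and 4.34 in Model and 7.13, 3.61 and 13.2 in Blank. Ifih1, or MDA5, which recognises long double-stranded RNA, was at 21.0, 15.8 and 12.99 CPM in SYT, 16.6, 16.2 and 19.9 in YJT, 28.2, 17.1 and 15.5 in YJZYT, 17.8, 21.5 and 12.6 in Model and 23.1, 14.1 and 26.2 in Blank. YJZYT1 was highest for both genes, with YJZYT and Model overlapping. Zbp1, a sensor of Z-form nucleic acids, was at 22.2, 15.4 and 2.73 CPM in SYT, 24.1, 17.5 and 18.8 in YJT, 18.1, 7.11 and 14.6 in YJZYT, 15.2, 15.2 and 11.3 in Model and 7.22, 7.84 and 8.12 in Blank. It ran differently from the block, with YJT1 highest and Blank3 among the low libraries.

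Of the transcription factors, Irf7, the amplifier of type I interferon production, was at 42.3, 63.3 and 20.7 CPM in SYT, 39.1, 43.0 and 47.3 in YJT, 115, 57.3 and 55.0 in YJZYT, 32.6, 53.7 and 16.5 in Model and 71.5, 14.7 and 112 in Blank. YJZYT1 and Blank3 were nearly equal at the top, and the YJZYT libraries were above those of Model. In the table Irf7 overlaps Phrf1 on the opposite strand, and no source used here gives the strand setting of the counting. Irf9 was at 52.8, 58.1 and 29.4 CPM in SYT, 44.9, 60.6 and 72.8 in YJT, 69.0, 59.8 and 82.8 in YJZYT, 58.1, 46.3 and 36.1 in Model and 73.3, 42.1 and 77.4 in Blank. It was highest in YJZYT3 and not in YJZYT1. Stat2 was at 76.1, 63.7 and 66.9 CPM in SYT, 71.5, 75.3 and 68.6 in YJT, 79.7, 74.4 and 64.0 in YJZYT, 70.5, 106 and 86.1 in Model and 66.1, 58.8 and 65.6 in Blank. It varied least of the 3 factors, and its Model values all lay above its Blank values.

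**Figure D2:**
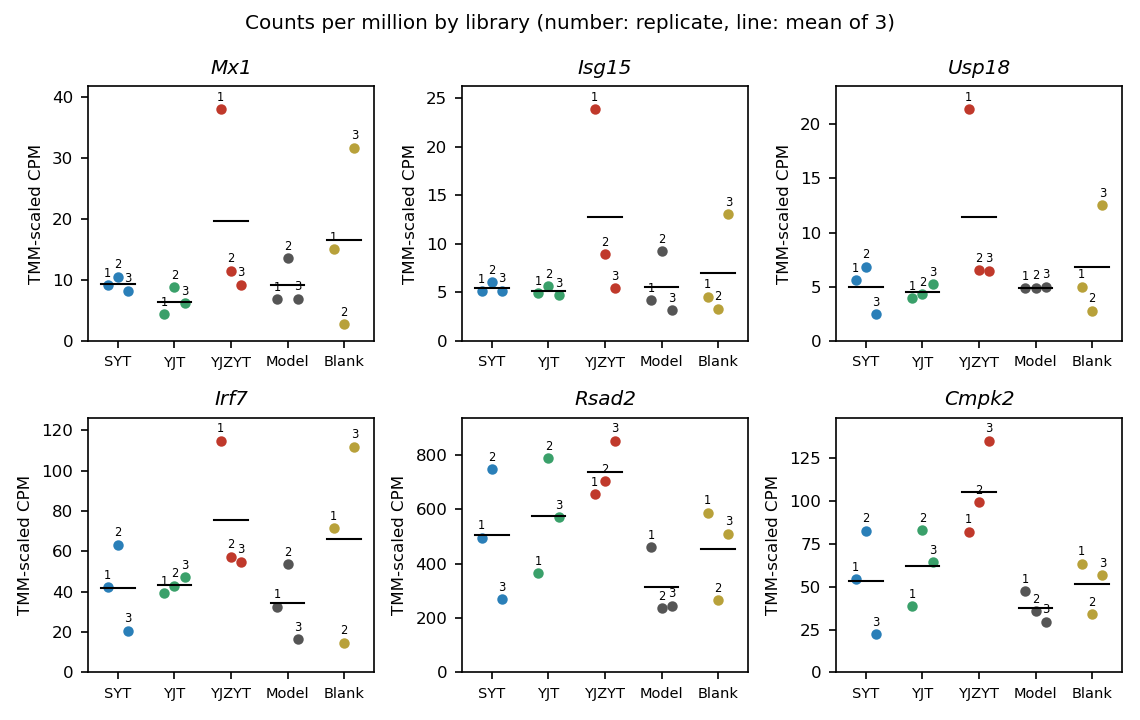
CPM of Mx1, Isg15, Usp18, Irf7, Rsad2 and Cmpk2 in each library, 1 point per library with its replicate number, the line at the group mean, and groups along the x axis. Mx1 is at 37.9 CPM in YJZYT1 and 31.6 CPM in Blank3, above all other points, while Rsad2 and Cmpk2 are highest in YJZYT3.

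The remaining roles varied less. Parp9 and Parp14, which transfer ADP-ribose to proteins, were both highest in YJZYT1, with ranges over the 15 libraries of 2.29-fold and 2.97-fold. Parp14 was at 34.7, 43.9 and 41.5 CPM in SYT, 33.3, 35.5 and 35.8 in YJT, 76.3, 47.1 and 33.0 in YJZYT, 34.1, 44.3 and 44.0 in Model and 48.8, 25.7 and 68.6 in Blank. Parp9 was at 35.5, 53.4 and 37.2 CPM in SYT, 45.2, 56.2 and 46.9 in YJT, 81.4, 63.9 and 56.5 in YJZYT, 36.2, 58.3 and 48.9 in Model and 47.3, 36.4 and 61.2 in Blank. Both had YJZYT1 at the top, and YJZYT overlapped Model for both. The guanylate-binding proteins Gbp2 and Gbp5, which coat vacuoles of intracellular microbes, varied by 1.75-fold and 1.77-fold and were not highest in YJZYT1. Gbp2 was at 26.8, 23.5 and 32.2 CPM in SYT, 21.8, 22.8 and 28.1 in YJT, 35.6, 28.4 and 27.8 in YJZYT, 29.0, 32.4 and 25.4 in Model and 28.8, 26.2 and 38.1 in Blank. Gbp5 was at 12.8, 10.9 and 12.0 CPM in SYT, 9.01, 10.3 and 9.57 in YJT, 13.2, 15.4 and 8.69 in YJZYT, 9.66, 11.4 and 11.4 in Model and 10.4, 10.6 and 12.8 in Blank. Their groups overlapped in all 4 comparisons.

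The immunoproteasome subunits Psmb8 and Psmb9, which shape the peptides shown to T cells, varied by 2.26-fold and 2.07-fold. Psmb8 was at 106, 47.0 and 64.4 CPM in SYT, 60.8, 64.0 and 62.7 in YJT, 79.4, 90.2 and 72.4 in YJZYT, 72.2, 91.9 and 62.4 in Model and 71.5, 66.1 and 73.8 in Blank. Psmb9 was at 51.7, 28.2 and 35.6 CPM in SYT, 33.2, 43.4 and 50.5 in YJT, 53.7, 58.3 and 47.3 in YJZYT, 41.3, 51.7 and 36.9 in Model and 44.7, 38.1 and 47.2 in Blank. Neither was highest in YJZYT1 or Blank3. Among other induced genes, Lgals3bp was at 66.9, 142 and 134 CPM in SYT, 85.4, 113 and 132 in YJT, 193, 144 and 121 in YJZYT, 102, 60.3 and 81.5 in Model and 137, 85.9 and 173 in Blank. Its YJZYT values were all above its Model values, and Blank3 was the highest Blank library. Epsti1, an interferon-induced protein of macrophages, was at 67.2, 38.8 and 47.7 CPM in SYT, 44.4, 46.3 and 41.7 in YJT, 53.8, 68.3 and 58.5 in YJZYT, 45.5, 89.0 and 57.0 in Model and 52.6, 49.5 and 47.8 in Blank. It was highest in Model2, and no group was separate from Model. Members not given by library were Ddx58, Ifit2, Ifit3, Oasl, Eif2ak2, Adar, Bst2, Rtp4, Uba7, Dtx3l, Ifi44, Ifi35, Nmi, Xaf1 and Tor3a, with ranges of 1.56-fold to 5.40-fold.

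Rsad2 and Cmpk2 followed a second pattern. They are neighbours on chromosome 6 of the table, 14085 bases apart and pointing away from each other, and Cmpk2 is a mitochondrial nucleotide kinase. Rsad2 was at 496, 747 and 270.1 CPM in SYT, 366, 787 and 571 in YJT, 657, 703 and 852 in YJZYT, 459.8, 235 and 245 in Model and 588, 267 and 510.2 in Blank. Cmpk2 was at 54.2, 82.7 and 22.2 CPM in SYT, 38.7, 83.1 and 64.4 in YJT, 82.1, 99.2 and 135 in YJZYT, 47.5, 35.6 and 29.6 in Model and 63.5, 34.1 and 56.7 in Blank. YJZYT3 was highest for both, YJZYT1 was only rank 5, and all 3 YJZYT libraries were above all 3 Model libraries.

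The same libraries were high and low for markers of red cell precursors. Of 10 erythroid markers listed, 9 were in the table and none was at 0 in any library. Their summed level ranged over 1775 to 8154 CPM in SYT, 3298 to 7303 in YJT, 5163 to 9476 in YJZYT, 1592 to 4472 in Model and 3466 to 6240.1 in Blank. YJZYT3 was rank 1 of 15 for Rsad2, Cmpk2 and the erythroid score, and 4 of the 5 highest and 4 of the 5 lowest libraries for Rsad2 were the same as for that score. The erythroid score was then added as a covariate, an alternative chosen after the data were seen. The log2 fold change of YJZYT over Model was 0.28 (SE 0.24) for Rsad2, against 1.23 without the covariate. For Cmpk2 it was 0.42 (SE 0.26) against 1.49. For Mx1 it was 1.20 (SE 0.90) against 1.11, and for Isg15 1.57 (SE 0.73) against 1.20. Some other members were also lower in that fit, with Irf9 at 0.01 (SE 0.28) against 0.59 and Trim21 at 0.11 (SE 0.24) against 0.56. Adar, which edits double-stranded RNA, was at 0.04 (SE 0.30) against 0.43 without the covariate. Others were higher, with Rtp4 at 1.17 (SE 0.58) against 0.39 and Tor3a at 0.76 (SE 0.51) against 0.23. With the covariate 34 members were positive and 5 negative, with a median of 0.34 against -0.02 for all genes. The erythroid score was 0.27 to 1.14 in YJZYT and -1.38 to 0.06 in Model, with no overlap. In this comparison the score and the group therefore cannot be told apart, and the covariate also takes up group differences. In bulk RNA, fewer cells of a type and less RNA per cell cannot be told apart.

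**Figure D3:**
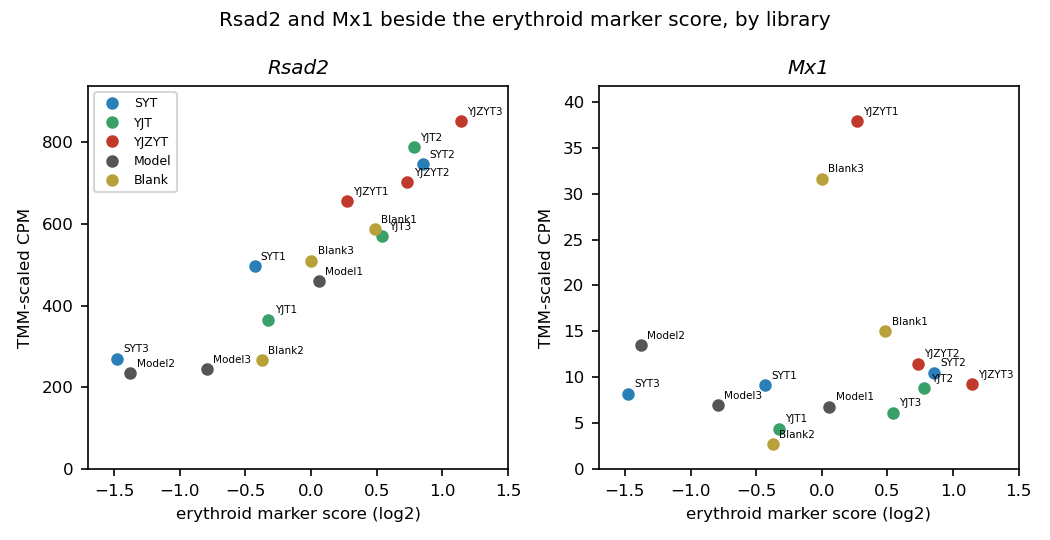
Rsad2 (left) and Mx1 (right) in CPM against the erythroid marker score of each library, 1 point per library, coloured by group. Rsad2 is highest in YJZYT3, which has the highest erythroid score of 1.14, and Mx1 is highest in YJZYT1 at a score of 0.27.

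Markers of other cell types also differed in the 2 libraries where the block was high. The T and NK cell score and the plasma cell score were each highest in YJZYT1, at 0.67 and 0.66. In Blank3 they were at -0.19 and 0.11. All 14 T and NK markers were in the table, with Gzma at 0 in some libraries, YJZYT1 among them. Their summed level ranged over 142 to 176 CPM in SYT, 127 to 175 in YJT, 145 to 209 in YJZYT, 182 to 194 in Model and 159 to 177 in Blank. All 6 plasma cell markers were in the table with none at 0, and ranged in sum over 305 to 351 CPM in SYT, 292 to 342 in YJT, 239 to 533 in YJZYT, 386 to 479 in Model and 251 to 457 in Blank. The score of plasmacytoid dendritic cell markers was -0.17 in YJZYT1 and 0.39 in Blank3. The monocyte and macrophage score was highest in Blank3, at 0.75, and was 0.47 in YJZYT1, with 11 of 12 markers in the table and none at 0. Those 11 summed to 390 to 834 CPM in SYT, 281 to 515 in YJT, 273 to 716 in YJZYT, 615 to 703 in Model and 742 to 916 in Blank. The part of these cells in the interferon gene levels was not tested.

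In YJZYT against Model, both ovariectomized, the log2 fold change was positive for 35 of 39 members and negative for 4, with a median of 0.39 against -0.07 for all genes tested. With no scaling factors it was positive for 28 and negative for 11, with a median of 0.29 against -0.22 for all genes. By edgeR's quasi-likelihood test with Benjamini-Hochberg adjustment at 0.05, 0 of 39 members passed, and 0% of all genes did. At an unadjusted p below 0.05, 6 members were higher and 0 lower, against 4.44% and 2.85% of all genes, and DESeq2 called 0 members after adjustment. With no scaling factors 2 were higher and 1 lower, and with the erythroid covariate 1 was higher and 0 lower. Counted in both directions, 7.99% and 4.19% of all genes were at that level in these fits. In 9 members, Irf7, Irf9, Rsad2, Cmpk2, Eif2ak2, Usp18, Herc6, Trim21 and Lgals3bp, all 3 YJZYT libraries were above all 3 Model libraries, which was so for 7.35% of all genes. None was separated downwards, against 5.57%.

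The members with the smallest p were Cmpk2 and Rsad2. Cmpk2 averaged 105 ± 27.0 CPM in YJZYT and 37.6 ± 9.07 CPM in Model (SD, n = 3 each), a log2 fold change of 1.49 (SE 0.42, edgeR adjusted p 0.638). Rsad2 averaged 737 ± 102 CPM in YJZYT and 313 ± 127 CPM in Model, a log2 fold change of 1.23 (SE 0.42, edgeR adjusted p 0.638). Neither passed, although the groups did not overlap. The log2 fold change was 0.91 (SE 0.33) for Lgals3bp, 0.56 (SE 0.25) for Trim21, 1.25 (SE 0.56) for Herc6 and 0.49 (SE 0.23) for Eif2ak2, the kinase that halts translation on double-stranded RNA. Their edgeR adjusted p ran from 0.638 to 0.681.

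Much of this rested on YJZYT1. YJZYT1 was above all 3 Model libraries for 29 members, YJZYT2 for 16 and YJZYT3 for 11, against 20.1%, 21.5% and 23.9% of all genes. Without YJZYT1 the median over members was 0.19 against -0.10 for all genes, with 25 members positive and 14 negative. At an unadjusted p below 0.05, 2 members were then higher and 0 lower, against 10.6% of all genes in either direction. In that fit the log2 fold change was 0.19 for Mx1, 0.37 for Isg15, 0.40 for Usp18, 0.26 for Herc6 and -0.04 for Mx2, and it was 1.31 for Rsad2 and 1.64 for Cmpk2. With all libraries the first 5 were 1.11, 1.20, 1.22, 1.25 and 1.19. The count of members higher at an unadjusted p below 0.05 was 3 without Model3 and 11 without YJZYT3. Of all genes, 3.83% and 3.65% were at that level in these fits, counted in both directions. Without YJT3 and YJZYT3, the libraries with the lowest osteoblast scores, the member median was 0.47 against -0.06 for all genes. In that fit 36 members were positive and 3 negative. Without YJZYT3 alone Rsad2 was at 1.12 (SE 0.47), Cmpk2 at 1.27 (SE 0.46) and Irf9 at 0.46 (SE 0.33).

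By role, all 12 direct antiviral effectors were positive in YJZYT over Model, with a median of 0.58, though Bst2 was at only 0.004. Of the 17657 genes tested, 7465 were positive. Without YJZYT1, Ifit2, Ifit3, Mx2, Bst2 and Rtp4 were negative, from -0.34 for Bst2 to -0.04 for Mx2. The role values that follow are from the fit with all libraries. The 7 genes of the Isg15 and ubiquitin system had a median of 0.56 with 6 positive, and the 3 transcription factors 0.59 with 2 positive. The 2 guanylate-binding proteins were at a median of 0.14 and the 2 immunoproteasome subunits at 0.20.

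**Figure D4:**
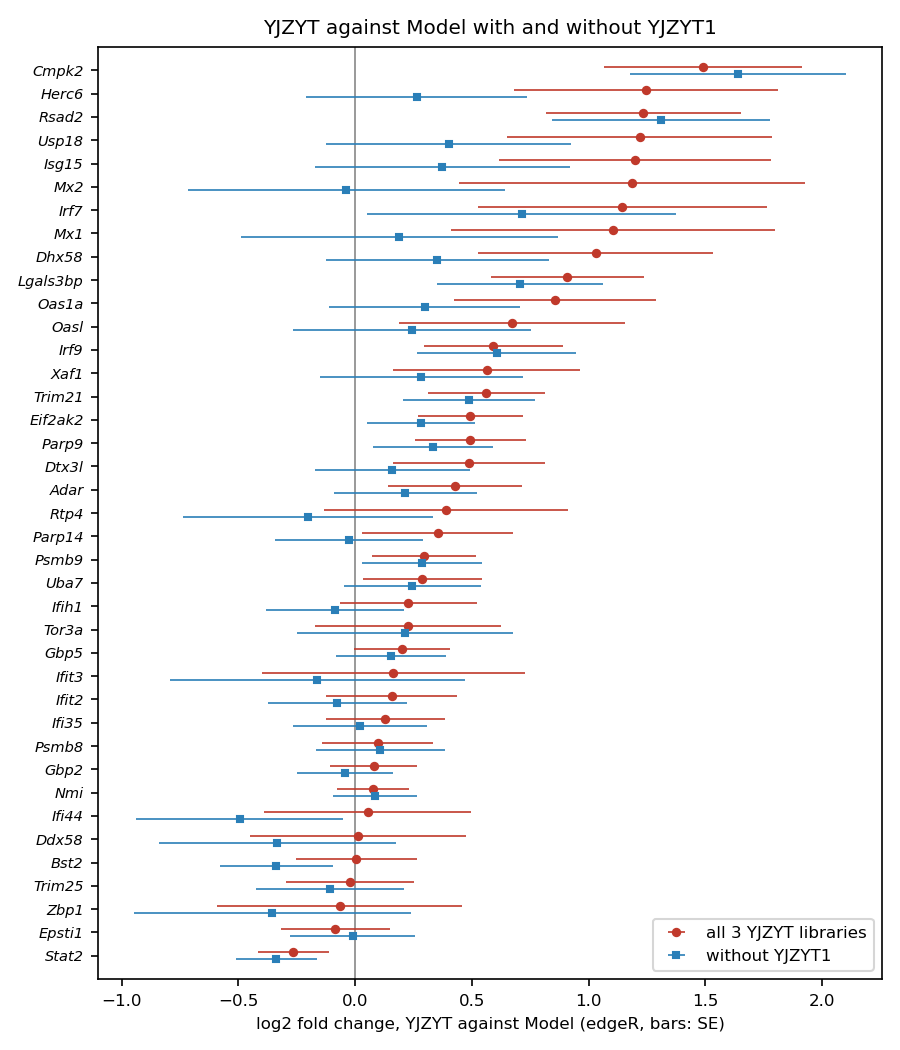
Log2 fold change of YJZYT over Model for each of the 39 members, in rows, from the fit with all libraries and from the fit without YJZYT1, with bars of 1 SE. Without YJZYT1, Mx1, Mx2, Isg15, Usp18 and Herc6 lie between -0.04 and 0.40, and Rsad2 and Cmpk2 stay at 1.31 and 1.64.

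Model against Blank sets ovariectomized rats against untreated rats, with no sham-operated group. The log2 fold change was positive for 8 members and negative for 31, with a median of -0.29 against 0.02 for all genes. Markers of tissues around bone differed between the groups. All 8 skeletal muscle markers were in the table with none at 0, and summed to 224 to 770.2 CPM in Model and 4121 to 6190.2 CPM in Blank. The 6 adipocyte markers, with Lep at 0 in at least 1 library, summed to 69.7 to 184 CPM in Model and 376 to 515 CPM in Blank. Their part in the member values was not tested. No member passed edgeR's test, while 4 of 17657 genes, or 0.0227%, did. At an unadjusted p below 0.05, 1 member was higher and 0 lower, against 3.96% and 4.23% of all genes. It was Stat2, which averaged 87.4 ± 17.6 CPM in Model and 63.5 ± 4.03 CPM in Blank (SD, n = 3 each), a log2 fold change of 0.46 (SE 0.15, edgeR adjusted p 0.407).

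The Stat2 and Zbp1 values of Model were all above those of Blank, and such a separation upwards held for 7.69% of all genes. No member was separated downwards, against 7.99% of all genes. The next smallest p values belonged to Lgals3bp at -0.70 (SE 0.33), Mx2 at -1.21 (SE 0.74), Zbp1 at 0.85 (SE 0.53), Dtx3l, the partner of Parp9, at -0.51 (SE 0.33) and Irf9 at -0.46 (SE 0.30). Their edgeR adjusted p ran from 0.613 to 0.771. The median depended on which Blank library was used, at -0.01 with 19 positive and 20 negative without Blank3, and at -0.52 without Blank2. The medians of all genes in these fits were -0.04 and 0.04. Without Blank2, 6 members were lower at an unadjusted p below 0.05, and the count was 3 without Model1 and 2 without Model2. Of all genes, 9.24%, 11.3% and 5.66% were at that level in these fits, counted in both directions.

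SYT, YJT and YJZYT were each set against the same 3 Model libraries, so their values share those controls. SYT over Model had 19 positive and 20 negative members and a median of -0.00, against 0.02 for all genes, and the median ran from -0.08 to 0.12 with 1 library left out. With no scaling factors 9 were positive and 30 negative, as the median of all genes moved to -0.22. No member passed, and 0% of all genes did. At an unadjusted p below 0.05, 0 members were higher and 1 was lower, against 1.98% and 1.18% of all genes. It was Stat2, at 68.9 ± 6.41 CPM in SYT and 87.4 ± 17.6 CPM in Model (SD, n = 3 each), a log2 fold change of -0.34 (SE 0.15, edgeR adjusted p 1). Without SYT1, 5 members were lower and 1 was higher at that level, which 5.78% of all genes reached in either direction. Rsad2 was at 0.69 (SE 0.41), Lgals3bp at 0.49 (SE 0.33), Epsti1 at -0.32 (SE 0.23), Bst2 at -0.35 (SE 0.26) and Cmpk2 at 0.50 (SE 0.42). No member separated the groups, against 3.24% of all genes upwards and 2.65% downwards.

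YJT over Model had 18 positive and 21 negative members and a median of -0.02, the same as over all genes to 2 decimals, and from -0.11 to 0.10 with 1 library left out. With no scaling factors 12 were positive and 27 negative, as the median of all genes moved to -0.16. No member passed, and 0% of all genes did. At an unadjusted p below 0.05, 0 members were higher and 1 was lower, against 4.12% and 2.46% of all genes. It was Epsti1, at 44.1 ± 2.28 CPM in YJT and 63.8 ± 22.5 CPM in Model (SD, n = 3 each), a log2 fold change of -0.53 (SE 0.24, edgeR adjusted p 0.757). Rsad2 was at 0.87 (SE 0.41), Stat2 at -0.28 (SE 0.15), Bst2 at -0.47 (SE 0.26), Cmpk2 at 0.72 (SE 0.42) and Rtp4, a chaperone of receptors, at -0.75 (SE 0.53). Zbp1 was separated upwards (6.83% of all genes) and Bst2 downwards (4.92%).

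With the erythroid score as a covariate, Rsad2 was at 0.39 (SE 0.19) in SYT over Model and 0.14 (SE 0.22) in YJT over Model, and Cmpk2 at 0.06 (SE 0.21) and -0.10 (SE 0.24). The erythroid score was lowest in SYT3, Model2 and Model3.

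The other genes of the pathway were taken from a list of 107 symbols, of which 91 were in the table and 86 were tested. None passed edgeR's test in any of the 4 comparisons. At an unadjusted p below 0.05 the count was 0 in SYT against Model, where 1.98% of all genes were higher and 1.18% lower. It was 2 higher and 2 lower in YJT against Model (4.12% and 2.46% of all genes). In YJZYT against Model it was 4 higher and 1 lower (4.44% and 2.85%). In Model against Blank it was 4 higher and 2 lower (3.96% and 4.23%). These counts among 86 genes were near the shares of all genes. Of 54 other interferon-induced genes, 20 were highest in YJZYT1, against 2.71% of all genes.

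Of 12 ligand symbols listed, 5 were in the table, and those 5 were barely detected. The rest, among them Ifnb1 for interferon beta, had no row under the symbols listed, so their levels are not known here. Ifng, which encodes interferon gamma, had 12 counts in YJZYT1 and 0 in the other 14 libraries, where 3 counts is the level that a count of 0 allows. Ifna1 had 8 counts in all, Ifna4 4, Ifnk 3 and Ifna11 2, and none of these ligands passed the filter. Intervals and this floor cover counting error only.

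The receptor chains were detected in every library. Ifnar1 was at 109.7, 138 and 93.2 CPM in SYT, 93.8, 114 and 132 in YJT, 102, 127 and 122 in YJZYT, 108, 88.6 and 111 in Model and 119, 97.0 and 109.9 in Blank. Ifnar2 was at 22.7, 33.4 and 17.4 CPM in SYT, 21.3, 31.0 and 29.0 in YJT, 25.1, 28.9 and 33.7 in YJZYT, 24.6, 17.5 and 19.7 in Model and 25.8, 20.8 and 25.3 in Blank. Ifngr1, the ligand-binding chain for interferon gamma, was at 103, 97.0 and 93.1 CPM in SYT, 114, 95.1 and 94.4 in YJT, 95.5, 69.2 and 74.1 in YJZYT, 93.7, 84.5 and 83.8 in Model and 73.6, 107 and 81.2 in Blank. Ifnar2 in YJZYT was above Model in all libraries, and Ifnar1 and Ifngr1 overlapped. The receptor chains Ifngr2 and Il10rb and the kinase Tyk2 were below Model in all YJZYT libraries. Of the 86 pathway genes tested, 7 were separated upwards and 5 downwards, against 7.35% and 5.57% of all genes. In YJZYT over Model the log2 fold changes were 0.19 (SE 0.18) for Ifnar1, 0.50 (SE 0.24) for Ifnar2 and -0.13 (SE 0.17) for Ifngr1.

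Jak1 averaged 156 ± 18.4 CPM in YJZYT and 180 ± 32.2 CPM in Model, and Tyk2 49.0 ± 3.14 CPM in YJZYT and 59.7 ± 7.51 CPM in Model (SD, n = 3 each). Irf1, which responds to interferon gamma, was at 47.8, 32.0 and 38.5 CPM in SYT, 36.3, 35.6 and 40.5 in YJT, 56.8, 34.8 and 36.5 in YJZYT, 33.5, 45.3 and 39.3 in Model and 32.2, 32.4 and 34.8 in Blank. It was highest in YJZYT1. Irf3, the factor that starts type I interferon transcription, averaged 60.9 ± 12.8 CPM in YJZYT and 67.7 ± 15.7 CPM in Model.

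The pathway genes with the smallest p included Il10rb, a receptor chain shared with interleukin 10 and interferon lambda. Its log2 fold change was -0.44 (SE 0.12, edgeR adjusted p 0.73) in YJT over Model and -0.46 (SE 0.12, edgeR adjusted p 0.638) in YJZYT over Model, and DESeq2 called it in both, with adjusted p of 0.0214 and 0.0183. Ube2l6, the conjugating enzyme for Isg15, was at 1.15 (SE 0.35) and Isg20, an exonuclease, at 1.14 (SE 0.35) in YJZYT over Model. In YJT over Model, Isg20 was at 0.78 (SE 0.34) and Tap1, a peptide transporter, at 0.75 (SE 0.25).

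In SYT over Model the 3 smallest p belonged to Apol9a, an apolipoprotein L family gene, at 1.17 (SE 0.56), Daxx, a chromatin factor, at -0.25 (SE 0.12) and Cgas, the DNA sensor, at -0.59 (SE 0.30). In Model over Blank, Apol9a was at -2.002 (SE 0.57, edgeR adjusted p 0.344), averaging 1.66 ± 0.34 CPM in Model and 6.65 ± 2.19 CPM in Blank, and Daxx was at 0.34 (SE 0.12). Gbp1 was at 0 counts in all 3 Model libraries and averaged 0.329 ± 0.022 CPM in Blank, so no fold is given. DESeq2 called Apol9a in that comparison, with an adjusted p of 0.0274.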

How the data were processed

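The authors deposited a table that holds, per the file headers, a raw count and an FPKM value per gene and library, with Ensembl identifiers and coordinates (build not given in the sources used here). Per the labels' protocols, libraries were poly(A) selected, dUTP stranded and carried molecular identifiers. Per the submitters' processing notes, the tools were edgeR, DESeq2, StringTie 1.3.4d, UMI-tools, HISAT2 2.0.4 and cutadapt 1.9, with no roles stated. The strand setting of the counting was not stated.

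Counts were fitted with edgeR 4.0.16 in R 4.3.3 (filterByExpr, TMM, robust quasi-likelihood, all 15 libraries, 10 residual degrees of freedom), with two-sided tests and Benjamini-Hochberg adjustment over 17657 genes. Log2 CPM for scores used a prior count of 2. Alternatives used DESeq2 1.42.0 and limma 3.58.1. Tested on counts simulated for YJZYT against Model over 17341 genes, the fit recovered 17.9% of 67 genes changed 2-fold, 77.6% of 67 changed 4-fold and 80.3% of 66 changed 8-fold. The simulation drew each gene independently and gave 120 calls, against 0 in the real comparison. These rates may therefore overstate what the real test detects. No 2 libraries of the same group were duplicates, and pairs from different groups were not checked for this.

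The members and all gene lists were chosen with earlier results of these data known. Members given by library were the 2 with the highest mean CPM per role, a scale that does not divide by transcript length, and the 8 most raised in YJZYT1. Fold changes are given for the 6 members and 3 pathway genes with the smallest p per comparison, with the members in the text named for YJZYT1, and for key receptor and signalling genes. Overlapping pairs in the table on opposite strands were Irf7 with Phrf1, Uba7 with Inka1 and Tor3a with Abl2. Promoters were RefSeq sequences of GRCr8, searched with the stricter motif form first and then with the shorter form shown. One key signalling gene is not reported here.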

Additional observations from a re-analysis of the deposited data

How the results depend on the processing

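No member was called in any comparison under any alternative, and YJZYT1 was the highest, Blank3 the second and Blank2 the lowest library under all 5 other ways of making the member score. The number of genes called in Model against Blank, 4 in the fit reported, was 0 with no scaling factors, 288 with DESeq2, 40 with limma on log2(FPKM + 1), 2 with limma on log2(FPKM + 0.1), 8 with only the 6 libraries compared, 0 to 5 with 1 library left out, and 0 without YJZYT1 and Blank3, without YJT3 and YJZYT3 and with the erythroid covariate. DESeq2 called 27 genes in SYT, 96 in YJT and 61 in YJZYT against Model, where edgeR called 0, and leaving out 1 library gave 0 to 1 in SYT (1 without SYT3) and 0 to 1 in YJZYT (1 without Model2). DESeq2 called 1 pathway gene each in Model against Blank, YJT against Model and YJZYT against Model. The member median of SYT over Model was -0.25 with no scaling factors, -0.22 with limma on log2(FPKM + 1) and -0.27 with limma on log2(FPKM + 0.1), as the median of all genes moved to -0.22, -0.21 and -0.25. Cmpk2 in YJT over Model turned to -0.10 with the erythroid covariate, against 0.72. No label ties the replicate numbers across groups. Each gene's group mean was subtracted from its log2 CPM, and the deviations of same-numbered libraries were correlated. In Model against Blank they correlated at 0.06 to 0.24, and 5 of 6 libraries correlated best with their own number. In the other comparisons they correlated at -0.33 to 0.31, and 2 of 6 did in each. Deviations within a group sum to 0, so the 6 outcomes are not independent, and this hint of pairing is weak and from the data only. With the replicate block 0 genes were called in Model against Blank, 0 members were called, and the YJZYT median was 0.39. With 3 libraries a group, changes near 2-fold were mostly below what the test detects.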

Other observations

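The library in which the interferon genes were highest also differed in other genes. Among the 11917 genes that carry a gene symbol other than a clone or locus name and reach a group mean of 1 FPKM, the 15 with the largest ratio of YJZYT1 to the median of the other 14 libraries held 5 members, Mx2, Isg15, Usp18, Mx1 and Herc6. They also held 3 pathway genes, the chemokine Cxcl10 and the oligoadenylate synthetases Oas1i and Oas1g. Cxcl10 was at 4.67 CPM in YJZYT1 against a median of 0.589 CPM in the other 14 libraries, with 2.07 CPM in Blank3 as the next highest.

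The other 7 were of different kinds. Sost, the osteocyte product sclerostin that restrains bone formation, was at 17.0 CPM in YJZYT1 against a median of 2.21 CPM, but reached 21.1 CPM in Blank1. Tpsab1, a mast cell tryptase, was at 9.41 CPM against a median of 2.25 CPM, with 10.02 CPM in YJZYT2. Lilrb3, an inhibitory receptor of myeloid cells, was at 13.6 CPM against 2.27 CPM, with 13.8 CPM in Blank3. Hbz, an embryonic globin, was at 2.02 CPM against a median of 0, and RT1-M2, a histocompatibility gene, at 2.73 CPM against 0.404 CPM. Matn1, a cartilage matrix protein, was at 1.44 CPM against 0.311 CPM and AY172581 at 1.20 CPM against 0.208 CPM. Of these 7, 6 were higher in at least 1 other library than in YJZYT1, and RT1-M2 was at 2.48 CPM in Blank3.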
